A study of Mus musculus with 6 samples.

Results

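The genes described here are the chemokines and their receptors: 51 of the 13931 genes listed for 6 libraries of mouse lung alveolar epithelial type 2 (AT2) cells. They were chosen by name alone, as every gene whose symbol begins with Ccl, Cxcl, Cx3c, Xcl1, Xcr1, Ccr, Cxcr or Ackr in the standard numbering, together with Ccrl2. The rule itself used no measured value, though it was set with earlier results of these data known. It gave 32 ligands and 19 receptors, of which 4 are atypical receptors. Ppbp and Pf4, chemokine genes with symbols of another kind, are not among them. The 51 genes have 69 listed transcripts, and the values of transcripts of the same gene were summed.

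The libraries came from C57BL/6 mice, 3 of them exposed to PBS (the buffer control) and 3 to bleomycin at 1 U/kg, and the labels call the agent multiple in both groups. Bleomycin is a DNA-damaging drug that injures the lung and is used in rodents as a model of lung scarring. RNA abundance was given as FPKM, a unit of sequenced fragments that corrects for transcript length and library size, so levels of different genes can be set side by side per length. The labels used here say nothing of the cell isolation, of the route and spacing of the exposures or of when the lungs were taken.

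Chemokines are small secreted proteins that guide the movement of cells. Each binds G protein-coupled receptors on the cells it attracts, and these signal through Gi proteins to phosphoinositide 3-kinase and to the Rac regulators that remodel the actin cytoskeleton. Inflammatory chemokines are induced in injured tissue and draw in neutrophils, monocytes and lymphocytes, homeostatic ones place cells in resting tissue, and atypical receptors bind chemokines without G protein signalling. In the mouse lung the epithelium is known as the main source of Cxcl15, also called lungkine.

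The label was checked against cell type markers. In the counts of markers, higher and lower mean an adjusted p under 0.05 in the limma test described below. Of all tested genes, 15.2% were higher and 7.34% were lower in that test. AT2 markers were the most abundant list in every PBS library, with summed levels of 17742 to 25786 FPKM. In the bleomycin libraries they summed to 3298 to 7573 FPKM, and 10 of 10 were lower. They were again the most abundant list in bleomycin replicates 1 and 2. In bleomycin replicate 3 the airway markers summed to more, 3930 FPKM against 3298 FPKM. Sftpc, the surfactant protein that defines AT2 cells, measured 20624, 14292 and 13393 FPKM with PBS and 5545, 5805 and 2356 FPKM with bleomycin. Most leukocyte markers were higher in the bleomycin libraries. Of the 5 pan-leukocyte markers 4 were higher, and Cd52 did not pass. Cd52 measured 9.48, 10.3 and 17.6 FPKM with PBS and 0.583, 1.13 and 199 FPKM with bleomycin. The 8 T and natural killer (NK) cell markers summed to 3.22 to 7.28 FPKM with PBS and 214 to 333 FPKM with bleomycin, and the 5 neutrophil markers to 9.30 to 30.8 and 407 to 590 FPKM. The 8 macrophage and monocyte markers summed to 20.01 to 23.2 and 158 to 322 FPKM, and the 5 B cell markers to 10.6 to 22.4 and 231 to 396 FPKM. Markers of other lung cells were divided. Endothelial markers were higher in 7 of 7 cases, with sums of 30.3 to 36.7 FPKM with PBS and 252 to 437 FPKM with bleomycin. Lymphatic endothelial markers were higher in 3 of 3 tested cases. Of the airway markers 1 of 6 was higher and none lower, and of the AT1 markers 1 of 6 was lower and none higher. Fibroblast and smooth muscle markers were lower in 4 of 7 cases and higher in none. No marker in these lists was listed at 0 in all 3 PBS libraries. In such mixed bulk RNA, fewer cells of a type and less RNA per cell cannot be told apart.

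Most chemokine genes that passed the test were higher after bleomycin. Of the 36 members with at least 1 FPKM in at least 3 libraries, 21 were higher and 3 were lower after bleomycin, and 12 did not pass the test. Over all 12326 genes tested in the same way, 15.2% were higher and 7.34% were lower. The test was limma on log2(FPKM + 1) at an adjusted p under 0.05, so the fold changes given below are on that scale and understate the change of low genes. Among the 24 members that passed, 23 changed at least 2-fold, a share that was not counted over all genes that passed. The 3 that fell were Cxcl15, Cxcl14 and Ccl27a. Of the 36, 8 were below 1 FPKM in every PBS library and were tested only because bleomycin libraries held them, so they had to differ. Of these 8, 7 are among the 21 that were higher. Ccr2, Ccrl2, Cxcl2, Ccl3, Ccl21b, Ccl22 and Xcl1, also higher, reached 1 FPKM in some but not all PBS libraries. So did Cxcl3, Cxcl5 and Ccl8, which did not pass. These members also needed bleomycin libraries to pass the filter, though that did not fix their order. The median difference was 1.48 log2 over the tested members and 0.09 over all tested genes. Scaling the libraries to 1 median moved the median of all genes to -0.07, and quantile normalization moved it to -0.08. The split of all calls moved with it, from 1871 higher and 905 lower to 1475 and 1412 and to 1431 and 1441. Leaving out any library but bleomycin replicate 3 left 457 to 514 genes lower.

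The leading ligands differed between the groups. In the PBS libraries Cxcl15 alone made 38.8%, 61.7% and 50.9% of the summed FPKM of the 32 ligands, and Cxcl14 was next with 27.1%, 9.92% and 29.3%. In the bleomycin libraries Cxcl15 made 10.8%, 12.0% and 10.4%, and Ccl5 came first with 32.7%, 38.8% and 27.2%. All ligands together summed to 606, 443 and 463 FPKM with PBS and to 1078, 877 and 568 FPKM with bleomycin. The PBS library with the highest sum thus lay above the lowest bleomycin library.

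**Figure D1:**
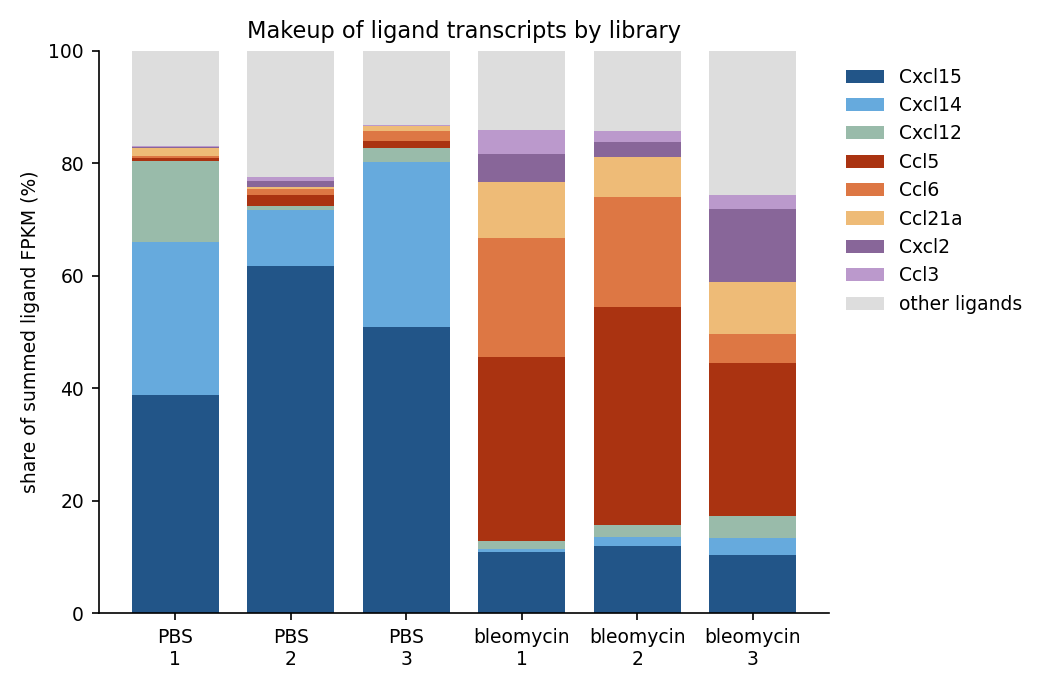
Share of the summed FPKM of the 32 ligands, in percent, taken by each of the leading ligands in each of the 6 libraries. Cxcl15 is the largest share in the 3 PBS libraries, 38.8% to 61.7%, and Ccl5 the largest in the 3 bleomycin libraries, 27.2% to 38.8%.

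Cxcl15 and Cxcl14 were set as epithelial ligands against 8 ligands known as products of leukocytes: Ccl3, Ccl4, Ccl5, Ccl6, Ccl9, Ccl17, Ccl22 and Xcl1. The epithelial pair summed to 400, 317 and 371 FPKM in PBS replicates 1, 2 and 3 and to 123, 119 and 76.0 FPKM in bleomycin replicates 1, 2 and 3. The 8 leukocyte ligands summed to 9.17, 19.8 and 18.2 FPKM with PBS and 666, 563 and 236 FPKM with bleomycin. Each of the 8 was higher after bleomycin and both epithelial ligands were lower, against 15.2% and 7.34% of all tested genes. Of the 8, 3 (Ccl4, Ccl9 and Ccl17) were below 1 FPKM in every PBS library and were tested only through bleomycin. Ccl3, Ccl22 and Xcl1 reached 1 FPKM in some but not all PBS libraries and also needed bleomycin libraries to pass the filter. Both lists were chosen with earlier results of these data known. The log2 ratio of the epithelial to the leukocyte sum was 5.45, 4.0 and 4.35 with PBS and -2.44, -2.24 and -1.64 with bleomycin, a difference of -6.70 between the group means. Without Ccl5 the difference was -6.05.

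Cxcl15 and its neighbours show how unlike genes of the same cluster behaved. Cxcl5, Cxcl3, Cxcl15, Cxcl1 and Cxcl2 lie in this order on chromosome 5 of mm10, between 90759378 and 90905938, with Ppbp and Pf4 between Cxcl5 and Cxcl3. The 200 bases before the RefSeq gene start are shown for 4 of them, with those of Cxcl14 and Cxcl10. Set side by side, these bases show what neighbours in the locus share and where they differ. They are from RefSeq's GRCm38.p6 assembly and run 5′ to 3′ on the gene's own strand, with the gene start after the last base. Capitals mark matches on either strand to TATAAA, to TGANTCA (the AP-1 motif) or to the kappa B consensus bound by NF-kappaB proteins.
Cxcl15: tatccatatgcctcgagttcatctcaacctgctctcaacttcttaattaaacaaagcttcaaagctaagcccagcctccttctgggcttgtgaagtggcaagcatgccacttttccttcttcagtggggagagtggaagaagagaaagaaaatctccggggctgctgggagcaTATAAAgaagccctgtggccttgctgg
Cxcl3: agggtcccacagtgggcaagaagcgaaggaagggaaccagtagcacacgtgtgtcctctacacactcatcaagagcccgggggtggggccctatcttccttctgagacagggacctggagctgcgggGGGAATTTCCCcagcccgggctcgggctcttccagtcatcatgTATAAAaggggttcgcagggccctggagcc
Cxcl1: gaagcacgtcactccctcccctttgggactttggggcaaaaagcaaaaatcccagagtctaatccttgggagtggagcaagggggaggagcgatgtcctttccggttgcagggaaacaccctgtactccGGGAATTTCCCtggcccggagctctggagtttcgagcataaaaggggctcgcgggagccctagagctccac
Cxcl2: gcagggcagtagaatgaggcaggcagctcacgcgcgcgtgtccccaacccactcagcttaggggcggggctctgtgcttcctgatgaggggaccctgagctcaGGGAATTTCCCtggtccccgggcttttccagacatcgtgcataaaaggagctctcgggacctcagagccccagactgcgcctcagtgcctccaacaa
Cxcl14: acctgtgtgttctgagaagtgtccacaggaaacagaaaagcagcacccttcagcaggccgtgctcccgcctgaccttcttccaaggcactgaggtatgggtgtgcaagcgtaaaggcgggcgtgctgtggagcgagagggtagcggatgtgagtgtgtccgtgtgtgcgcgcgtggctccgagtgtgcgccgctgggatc
Cxcl10: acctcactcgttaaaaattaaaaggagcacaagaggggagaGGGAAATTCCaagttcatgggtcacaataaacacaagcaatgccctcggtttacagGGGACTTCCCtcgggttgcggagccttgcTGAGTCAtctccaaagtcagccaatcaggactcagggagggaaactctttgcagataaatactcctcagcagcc
The windows are chr5:90794334-90794533 for Cxcl15, chr5:90785901-90786100 for Cxcl3, chr5:90891045-90891244 for Cxcl1 and chr5:90903699-90903898 for Cxcl2, all on the plus strand. Those of Cxcl14, chr13:56296552-56296751, and Cxcl10, chr5:92348890-92349089, are on the minus strand.

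Cxcl1, Cxcl2 and Cxcl3 share the run GGGAATTTCCC, which reads the same on both strands and holds 2 overlapping kappa B matches. It lies 71, 97 and 73 bases before the start of the respective gene. The run occurs in 11 of 32851 mouse promoter windows of the same length, which is 0.0335%. Cxcl15 lacks a kappa B match in this window and has TATAAA 27 bases before its start. Cxcl3 also has TATAAA, 30 bases before its start. Cxcl10 has kappa B matches 159 and 103 bases and TGAGTCA 74 bases before its start. Cxcl14 has none of these, nor CAAGTG, a core bound by NK-2 homeobox proteins such as the lung factor Nkx2-1. Of 32 members with a promoter window near the listed gene start, 8 held a kappa B match, against 3.18% of all windows. TATAAA was in 10 of 32, against 9.96%, TGANTCA in 3 of 32, against 5.48%, and CAAGTG in 1 of 32, against 9.07%. A match describes letters and is not evidence of binding, and its absence says only that the letters are not in this window. Cxcl1, Cxcl2 and Cxcl3 share the run and differed in their response, as follows.

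The neutrophil-attracting CXC ligands did not move together. Cxcl2, a ligand of the neutrophil receptor Cxcr2, measured 0.996, 4.0 and 0.382 FPKM with PBS and 54.0, 23.7 and 73.5 FPKM with bleomycin. All bleomycin libraries lay above all PBS libraries, and Cxcl2 rose by 4.28 ± 0.58 (log2, SE, n = 3 per group, limma adjusted p = 0.00338). Cxcl1, which uses the same receptor, measured 5.72, 27.9 and 6.64 FPKM with PBS and 4.78, 6.07 and 15.8 FPKM with bleomycin. The groups overlapped, PBS replicate 2 was the highest of the 6, and the difference of -0.37 ± 0.66 did not pass (adjusted p = 0.722). Without PBS replicate 2 it was 0.30. Cxcl3 and Cxcl5 stayed at or under 2.76 FPKM in every library and overlapped between the groups, with differences of 0.42 ± 0.30 and 0.20 ± 0.56. Cxcl5 was listed at 0 in PBS replicate 1, and an exact 0 of this kind may be an estimate that failed. A test of the difference in response between these neighbours was not run.

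Cxcl15 (ENSMUSG00000029375.6, chr5:90794534-90803067) was the most abundant chemokine of the PBS libraries. It measured 235, 273 and 235 FPKM with PBS and 116, 105 and 59.1 FPKM with bleomycin. The groups did not overlap, and Cxcl15 fell by 1.45 ± 0.28 on the log2 scale (adjusted p = 0.013). Set against Sftpc in the same library, Cxcl15 measured 11.4, 19.1 and 17.6 FPKM per 1000 FPKM of Sftpc with PBS and 21.0, 18.1 and 25.1 with bleomycin. The groups overlapped in this ratio, and its 2 highest values were those of bleomycin replicates 3 and 1. The part of the AT2 markers in the fall of Cxcl15 was not tested.

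Cxcl14 (ENSMUSG00000021508.10, chr13:56288647-56296551), a homeostatic ligand of epithelia and stroma, measured 164, 44.0 and 135 FPKM with PBS and 6.66, 13.9 and 16.98 FPKM with bleomycin. PBS replicate 2 was the lowest of its group, yet above every bleomycin library. Cxcl14 fell by 2.98 ± 0.56 on the log2 scale (adjusted p = 0.0117). Per 1000 FPKM of Sftpc it measured 7.97, 3.08 and 10.1 with PBS and 1.202, 2.39 and 7.21 with bleomycin, which overlapped. Fibroblast and smooth muscle markers were also lower with bleomycin in 4 of 7 cases, with sums of 1841 to 2539 FPKM against 466 to 1130 FPKM. Their part in the result was not tested.

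**Figure D2:**
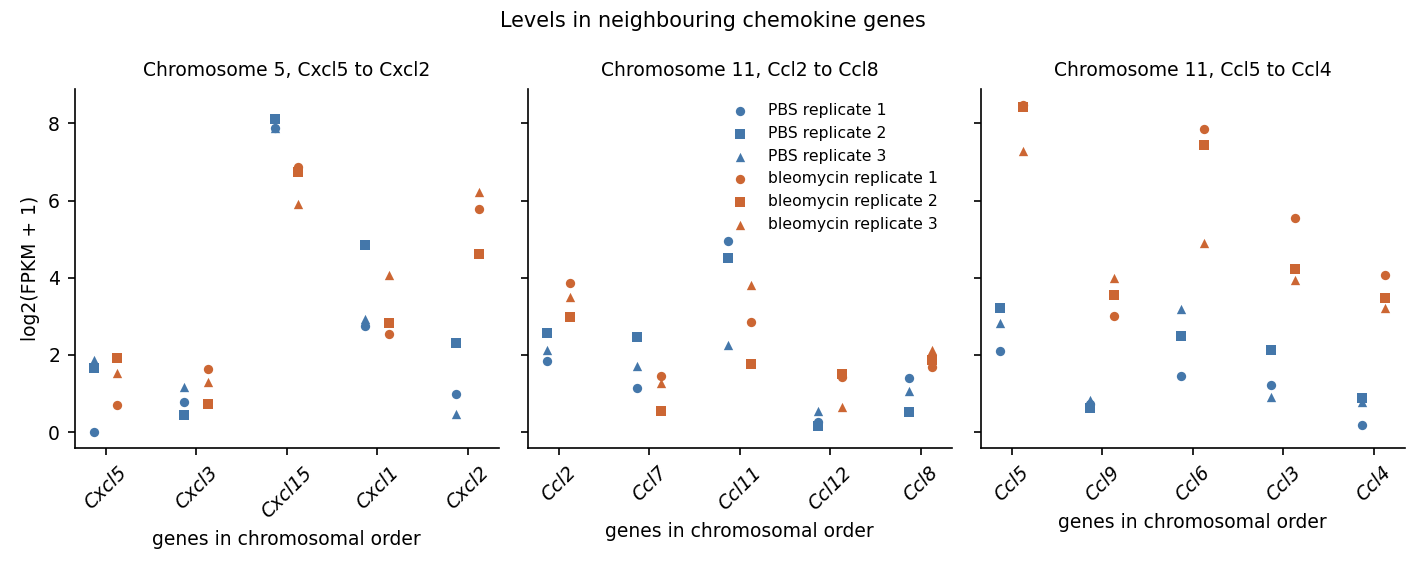
Level of each gene on a log2(FPKM + 1) axis in the 6 libraries, in 3 chemokine clusters in chromosomal order, with 1 point per library. On chromosome 5 Cxcl15 is lower and Cxcl2 higher with bleomycin while Cxcl1 overlaps. On chromosome 11 all 5 genes from Ccl5 to Ccl4 are higher, against 1 of 4 tested genes from Ccl2 to Ccl8. Of the 5, Ccl9 and Ccl4 were below 1 FPKM in every PBS library and were tested only through bleomycin. Ccl3 was below 1 FPKM in PBS replicate 3 and also needed bleomycin libraries to pass the filter.

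Ccl5 (ENSMUSG00000035042.2, chr11:83525778-83530518), which attracts T cells and monocytes, had the largest increase of the tested members on the log2(FPKM + 1) scale. It measured 3.27, 8.24 and 6.11 FPKM with PBS and 353, 340 and 155 FPKM with bleomycin. The lowest bleomycin library was far above the highest PBS library, and the increase was 5.34 ± 0.41 (adjusted p = 0.000352). Group means were 5.87 ± 2.50 and 283 ± 111 FPKM (SD, n = 3). Lck, a kinase of T cells, measured 0.335, 0.247 and 0.293 FPKM with PBS and 49.1, 45.04 and 41.5 FPKM with bleomycin. Of the T and NK cell markers, 8 of 8 were higher, against 15.2% of all tested genes. Of these 8, 5 were below 1 FPKM in every PBS library, Lck included, and were tested only through bleomycin. The markers Cd3g and Nkg7 were below 1 FPKM in PBS replicate 1 and also needed bleomycin libraries to pass the filter. The part of T and NK cells in the rise of Ccl5 was not tested.

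Ccl5, Ccl9, Ccl6, Ccl3 and Ccl4 lie in this order on chromosome 11 between 83525778 and 83664683. All 5 rose, against 15.2% of all tested genes. Of the 5, Ccl9 and Ccl4 were below 1 FPKM in every PBS library and were tested only through bleomycin. Ccl3 was below 1 FPKM in PBS replicate 3 and also needed bleomycin libraries to pass the filter. Ccl6 measured 1.75, 4.61 and 8.18 FPKM with PBS and 229, 172 and 28.6 FPKM with bleomycin (4.34 ± 0.83, adjusted p = 0.0131). Bleomycin replicate 3 was the lowest of its group in Ccl6. Its macrophage and monocyte markers summed to the highest value, 322 FPKM, of which 202 FPKM came from Cd68 alone. Cd68 measured 76.1 and 46.3 FPKM in bleomycin replicates 1 and 2. Ccl9 measured 0.655, 0.544 and 0.778 FPKM with PBS and 7.06, 10.7 and 14.9 FPKM with bleomycin (2.79 ± 0.27, adjusted p = 0.000811). In Ccl9 the order was the reverse, with bleomycin replicate 3 the highest. Both are ligands of Ccr1 made by myeloid cells in mice.

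Ccl3 and Ccl4 are made by activated macrophages, lymphocytes and neutrophils. Ccl3 measured 1.34, 3.41 and 0.878 FPKM with PBS and 45.5, 17.7 and 14.4 FPKM with bleomycin, an increase of 3.15 ± 0.50 (adjusted p = 0.00633). Ccl4 measured 0.142, 0.833 and 0.716 FPKM with PBS and 15.9, 10.2 and 8.30 FPKM with bleomycin, an increase of 2.98 ± 0.30 (adjusted p = 0.000928). In both, bleomycin replicate 1 was the highest library and the groups did not overlap. Macrophage and monocyte markers were higher in 7 of 8 cases and neutrophil markers in 5 of 5, with the sums given above. Of the 7 and the 5, 2 and 1 were below 1 FPKM in every PBS library and were tested only through bleomycin. Itgax, Mrc1 and the neutrophil marker Csf3r reached 1 FPKM in some but not all PBS libraries. They also needed bleomycin libraries to pass the filter. The part of these markers in the results was not tested.

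The other cluster of CC ligands on chromosome 11, from Ccl2 at 82035571 to Ccl8 at 82116799, had 1 called gene among 4 tested. Ccl2, the main ligand of Ccr2 on monocytes, measured 2.59, 4.95 and 3.36 FPKM with PBS and 13.6, 6.84 and 10.3 FPKM with bleomycin. Groups were separate and the increase was 1.27 ± 0.30 (adjusted p = 0.0271), a call that was lost under quantile normalization (0.052) and without any library other than PBS replicate 2 or bleomycin replicate 2 (0.0657 to 0.0802). Ccl11, the eosinophil attractant eotaxin, measured 29.9, 21.9 and 3.795 FPKM with PBS and 6.23, 2.40 and 13.1 FPKM with bleomycin. Its groups overlapped, and the difference of -1.10 ± 0.81 did not pass. Ccl7 overlapped as well (-0.68 ± 0.40). Ccl8 was higher in each bleomycin library, 2.24 to 3.41 FPKM against 0.438 to 1.62, with an adjusted p of 0.052. That call was gained with a pseudocount of 5 (0.0435), with library weights (0.0314) and without PBS replicate 1 (0.045). Ccl12 was below the filter, at 1.86 FPKM or less in every library.

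Among the remaining inflammatory CC ligands, Ccl17 and Ccl22, neighbours on chromosome 8 that act on Ccr4 and are typical of dendritic cells and macrophages, both rose. Ccl17 measured 0.899, 0.579 and 0.857 FPKM with PBS and 2.09, 3.39 and 3.58 FPKM with bleomycin (1.16 ± 0.21, adjusted p = 0.0109). Ccl22 measured 1.12, 0.330 and 0.542 FPKM with PBS and 5.73, 3.68 and 2.82 FPKM with bleomycin (1.60 ± 0.28, adjusted p = 0.00969). Dendritic cell markers, 3 of 4 tested ones higher, summed to 2.33 to 3.52 FPKM with PBS and 15.1 to 20.5 FPKM with bleomycin. All 3 were below 1 FPKM in every PBS library and were tested only through bleomycin. The part of dendritic cell markers was not tested. Ccl20, the ligand of Ccr6, was listed at 0, 0.197 and 0.809 FPKM with PBS and 3.26, 3.05 and 1.47 FPKM with bleomycin. Its increase of 1.43 ± 0.31 (adjusted p = 0.0206) did not pass under quantile normalization (0.0627), with the highest transcript alone (0.0611) or when a single library was left out: PBS replicate 1 (0.0663), PBS replicate 2 (0.0655), bleomycin replicate 1 (0.0655) or bleomycin replicate 2 (0.0663). Xcl1, made by T and NK cells, was listed at 0, 1.28 and 0.155 FPKM with PBS and 8.23, 5.34 and 9.21 FPKM with bleomycin (2.61 ± 0.36, adjusted p = 0.00359).

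Of the interferon-induced ligands of Cxcr3, Cxcl10 rose. It measured 1.70, 4.18 and 2.67 FPKM with PBS and 11.4, 9.46 and 8.59 FPKM with bleomycin (1.53 ± 0.27, adjusted p = 0.00951), with no overlap. Cxcl9 was below the filter in both groups, at 0.0224 to 0.198 FPKM with PBS and 0.299 to 0.824 FPKM with bleomycin. The inflammatory CC ligands together with Xcl1 had 10 of 13 tested members higher and none lower, against 15.2% and 7.34% of all tested genes. Of the 10, 4 (Ccl4, Ccl9, Ccl17 and Ccl20) were below 1 FPKM in every PBS library and were tested only through bleomycin. Ccl3, Ccl22 and Xcl1 were below 1 FPKM in at least 1 PBS library and also needed bleomycin libraries to pass the filter.

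**Figure D3:**
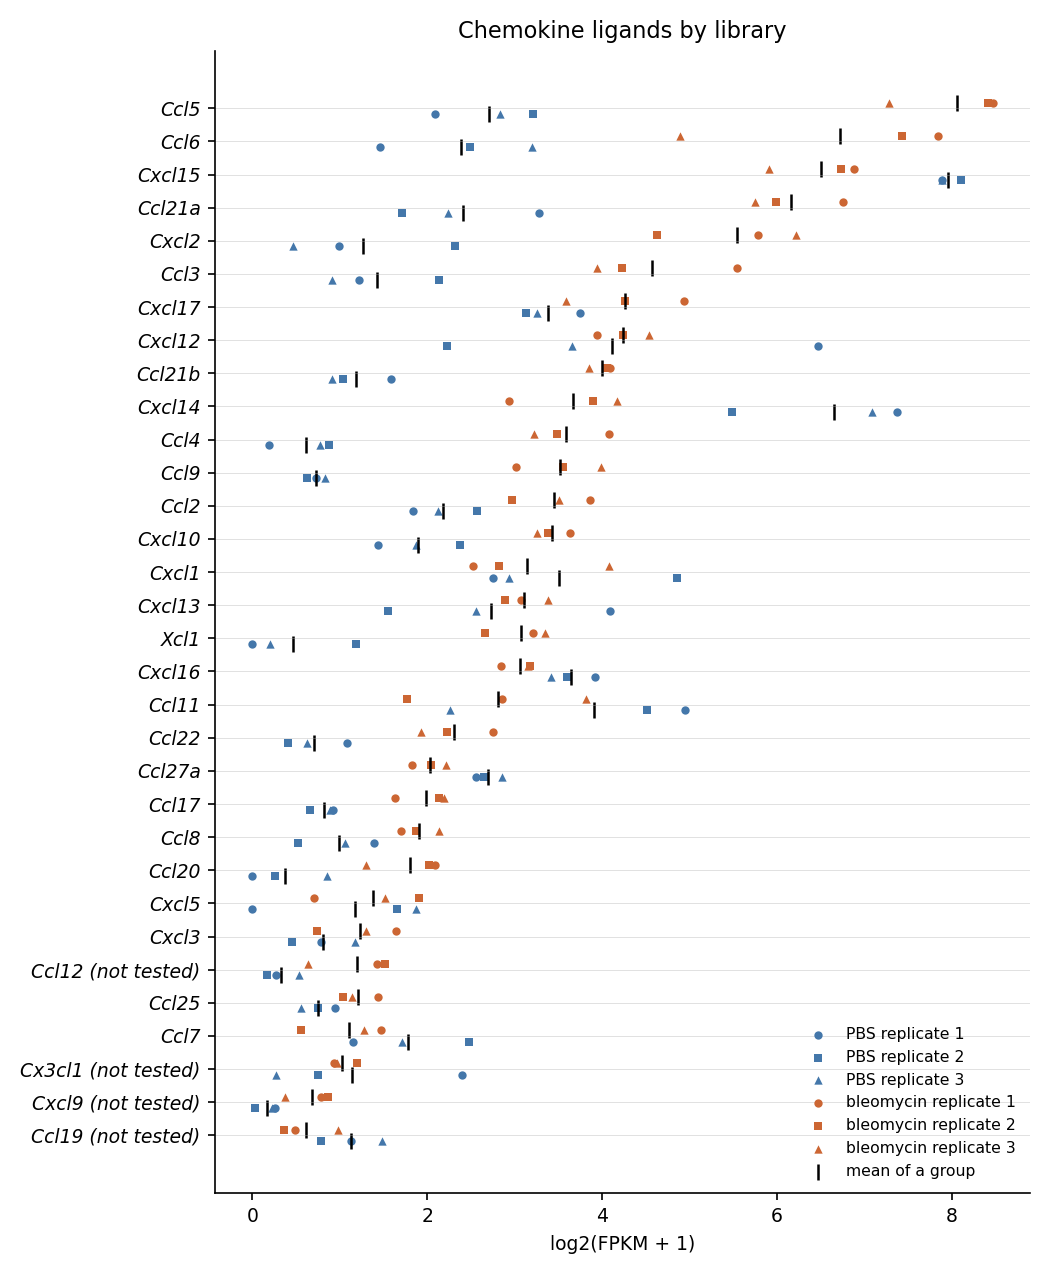
Level of each chemokine ligand in each of the 6 libraries, on a log2(FPKM + 1) axis, with 1 point per library and a black tick at each group's mean of these log values. Cxcl15 and Cxcl14 are lower in all 3 bleomycin libraries, while Ccl5, Ccl6, Ccl21a and Cxcl2 are higher in all 3.

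The homeostatic ligands were divided. Ccl21a and Ccl21b, which guide Ccr7-bearing dendritic cells and T cells towards lymphatic vessels and lymph nodes, are near-identical copies on chromosome 4, so the split of reads between them is uncertain. Ccl21a measured 8.68, 2.27 and 3.72 FPKM with PBS and 107, 62.3 and 52.8 FPKM with bleomycin (3.76 ± 0.45, adjusted p = 0.00195). Ccl21b measured 2.01, 1.06 and 0.888 FPKM with PBS and 16.1, 15.6 and 13.4 FPKM with bleomycin (2.82 ± 0.22, adjusted p = 0.000393). Neither overlapped between the groups. Ccl21a made 68.1% to 81.2% of their sum with PBS and 79.7% to 86.9% with bleomycin. Lymphatic endothelial markers, of cells known to make Ccl21, were higher in 3 of 3 tested cases. Of these, 2 were below 1 FPKM in every PBS library and were tested only through bleomycin. Lyve1 was below 1 FPKM in PBS replicate 3 and also needed bleomycin libraries to pass the filter. These markers summed to 1.17 to 4.13 FPKM with PBS and 20.5 to 54.5 FPKM with bleomycin. Ccl21a was highest in bleomycin replicate 1 while that sum was highest in bleomycin replicate 2, and their part in the result was not tested. Ccl19, the other Ccr7 ligand, did not follow: it was below the filter, at 0.727 to 1.79 FPKM with PBS and 0.291 to 0.971 FPKM with bleomycin.

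Ccl27a, an epithelial ligand of Ccr10, measured 4.90, 5.30 and 6.25 FPKM with PBS and 2.56, 3.12 and 3.64 FPKM with bleomycin. It fell by 0.66 ± 0.18 on the log2 scale without overlap (adjusted p = 0.0451). The call was lost without any single library other than bleomycin replicate 3 (0.0708 to 0.127), with the highest transcript alone (0.255) and with no filter (0.0503). The mouse genome holds near-identical copies of this gene, so its reads are uncertain too. Ccl25 was at 0.475 to 0.924 FPKM with PBS and 1.05 to 1.71 FPKM with bleomycin and did not pass (0.45 ± 0.19, adjusted p = 0.139).

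Cxcl12, which retains Cxcr4-bearing cells in tissue, measured 87.5, 3.67 and 11.6 FPKM with PBS and 14.4, 17.8 and 22.1 FPKM with bleomycin. PBS replicate 1 alone was above all other libraries and the groups overlapped, with a difference of 0.12 ± 0.99 that did not pass (adjusted p = 0.945). The sum hid unlike transcripts. In PBS replicate 1, 83.1 FPKM came from the transcript Cxcl12-001, which ends at 117175069 on chromosome 6 and was at 0.261 to 5.77 FPKM in the other 5 libraries. Cxcl12-003, which reaches 117181367, measured 1.29, 0.968 and 1.65 FPKM with PBS and 10.7, 14.5 and 12.9 FPKM with bleomycin. Its groups did not overlap. This transcript was singled out after its values were seen and was not tested, and shares of reads between overlapping transcripts are estimates. Endothelial markers, 7 of 7 higher, summed to 30.3 to 36.7 FPKM with PBS and 252 to 437 FPKM with bleomycin, and their part was not tested.

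Cxcl16, a transmembrane ligand of Cxcr6, was lower in each bleomycin library: 14.1, 11.1 and 9.70 FPKM with PBS and 6.19, 8.04 and 7.90 FPKM with bleomycin. Its difference of -0.59 ± 0.20 missed the threshold (adjusted p = 0.0771) and passed it with median scaling (0.0304) or quantile normalization (0.0327). Cxcl17, a mucosal chemokine, measured 12.4, 7.78 and 8.55 FPKM with PBS and 29.6, 18.2 and 10.98 FPKM with bleomycin. Bleomycin replicate 3 lay within the PBS range, and the difference of 0.88 ± 0.36 did not pass (adjusted p = 0.13), but did without that library (1.22, adjusted p = 0.0407). Cxcl13, the B cell attractant, measured 16.1, 1.93 and 4.87 FPKM with PBS and 7.39, 6.40 and 9.39 FPKM with bleomycin, and overlapped. Its difference of 0.38 ± 0.60 did not pass, and was -0.21 without PBS replicate 2. Cx3cl1 was below the filter, at 0.211 to 4.29 FPKM.

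Every receptor that passed the test rose. Of 19 receptors, 8 passed the filter on low values, and 7 of these were higher after bleomycin, none was lower, and Ackr3 did not pass, against 15.2% and 7.34% of all tested genes. Ccr6, Cxcr2 and Cxcr6, 3 of the 7, were below 1 FPKM in every PBS library and were tested only through bleomycin. Ccr2 reached 1 FPKM only in PBS replicate 3 and Ccrl2 only in PBS replicate 2. Both also needed bleomycin libraries to pass the filter. The 15 receptors that signal through G proteins summed to 6.61, 11.8 and 9.67 FPKM with PBS and 224, 72.9 and 132 FPKM with bleomycin. Bleomycin replicate 1 was the highest and bleomycin replicate 2 the lowest of its group.

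Ccr2, the receptor that brings monocytes to inflamed tissue, measured 0.262, 0.227 and 1.52 FPKM with PBS and 28.3, 11.9 and 14.3 FPKM with bleomycin (3.51 ± 0.41, adjusted p = 0.00184). Ccr6, found on B cells, Th17 cells and some dendritic cells, measured 0.665, 0.0175 and 0.115 FPKM with PBS and 4.12, 3.63 and 3.97 FPKM with bleomycin (1.99 ± 0.23, adjusted p = 0.00157). Ccr7 measured 1.64, 3.25 and 1.35 FPKM with PBS and 7.24, 8.58 and 8.02 FPKM with bleomycin (1.59 ± 0.26, adjusted p = 0.00676). All 3 were without overlap, and Ccr6 and Ccr7 were nearly level across the bleomycin libraries.

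Cxcr2, the neutrophil receptor for Cxcl1 and Cxcl2, measured 0.133, 0.0440 and 0.496 FPKM with PBS and 16.8, 6.32 and 8.49 FPKM with bleomycin (3.15 ± 0.35, adjusted p = 0.00151). In bleomycin replicate 1, 8.44 FPKM came from a transcript (chr1:74153989-74160610) that was listed at 0 in the other 5 libraries. The neutrophil markers summed to 590, 407 and 575 FPKM in bleomycin replicates 1, 2 and 3. Cxcr6, on T and NK cells, measured 0.345, 0.504 and 0.845 FPKM with PBS and 26.2, 17.6 and 8.75 FPKM with bleomycin (3.46 ± 0.38, adjusted p = 0.00139). The leukocyte lists that moved with these receptors are given above and their part was not tested.

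Cxcr4, the receptor for Cxcl12, had the highest mean of the receptors with bleomycin, 68.0 ± 53.3 FPKM (SD, n = 3). It measured 1.98, 6.52 and 2.90 FPKM with PBS and 115, 10.2 and 78.4 FPKM with bleomycin. Bleomycin replicate 2 was close to PBS replicate 2, although the groups did not overlap. The increase was 3.40 ± 0.88 (adjusted p = 0.0366). It did not pass without any library other than bleomycin replicate 2 (0.0614 to 0.108), or with library weights (0.0922).

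**Figure D4:**
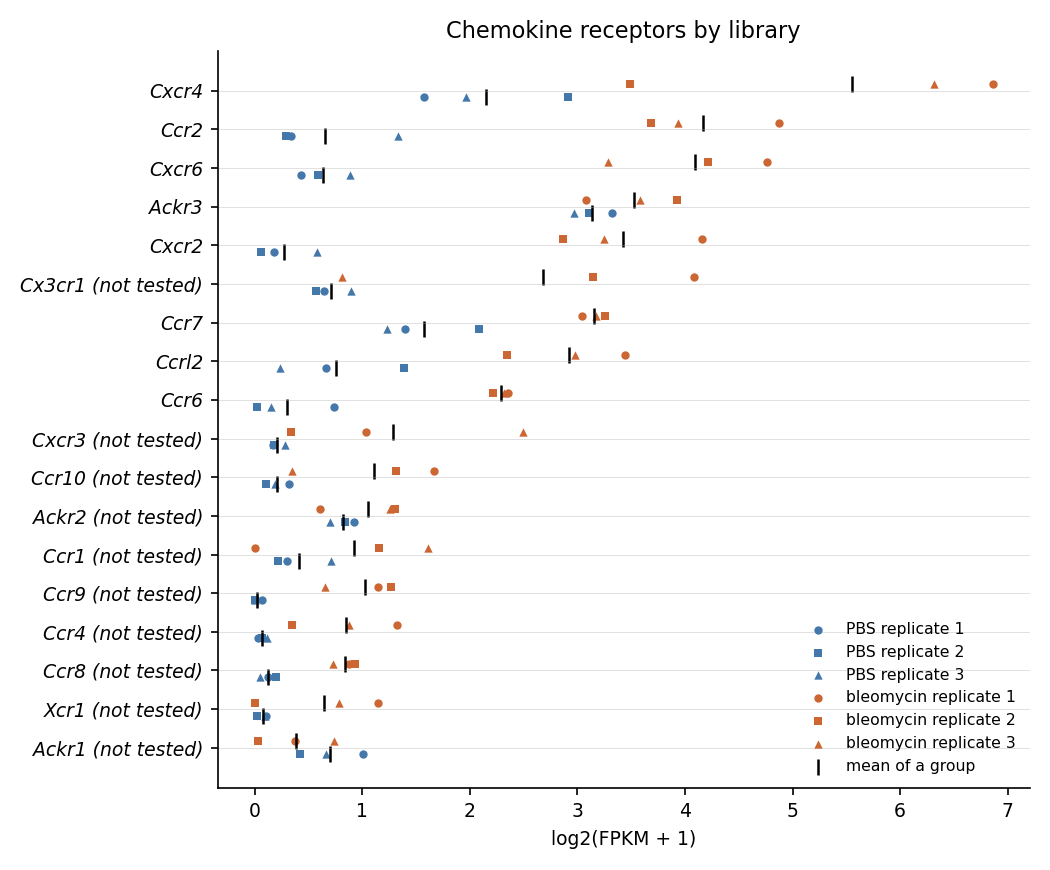
Level of the reported receptors in each of the 6 libraries, on a log2(FPKM + 1) axis, with 1 point per library and a black tick at each group's mean of these log values. The bleomycin points of Ccr2, Cxcr2, Cxcr6 and Cxcr4 lie above the PBS points, with bleomycin replicate 2 of Cxcr4 at 10.2 FPKM near PBS replicate 2 at 6.52 FPKM.

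Cx3cr1, the fractalkine receptor of monocytes, reached 1 FPKM in only 2 libraries and was not tested. It measured 0.569, 0.489 and 0.859 FPKM with PBS and 15.997, 7.87 and 0.760 FPKM with bleomycin. Bleomycin replicate 3 lay within the PBS range. Ccr1, Ccr4, Ccr8, Ccr9, Ccr10, Xcr1 and Cxcr3 were not tested either and reached at most 4.62 FPKM, in Cxcr3 of bleomycin replicate 3. Ccr1 was listed at 0 in bleomycin replicate 1 and Xcr1 in bleomycin replicate 2, and Ccr9 in PBS replicates 2 and 3. Of the 15 members below the filter, 7 were higher in every bleomycin library than in every PBS library, against 25.0% of all genes below the filter. Among tested members 23 of 36 were so ordered, against 27.2% of all tested genes. Of the 23, 8 were below 1 FPKM in every PBS library, so that passing the filter fixed their order. The same holds for 588 of the 12326 tested genes.

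The atypical receptors differed among themselves. Ccrl2, which presents chemerin on activated leukocytes and endothelium, measured 0.580, 1.62 and 0.176 FPKM with PBS and 9.87, 4.08 and 6.88 FPKM with bleomycin (2.16 ± 0.39, adjusted p = 0.0104). Ackr3, a scavenger of Cxcl12, measured 9.01, 7.65 and 6.82 FPKM with PBS and 7.48, 14.2 and 10.9 FPKM with bleomycin, and overlapped (0.40 ± 0.25, adjusted p = 0.299). It was the most abundant receptor of each PBS library. Ackr1 and Ackr2 were below the filter, at 0.0202 to 1.47 FPKM, and overlapped.

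**Figure D5:**
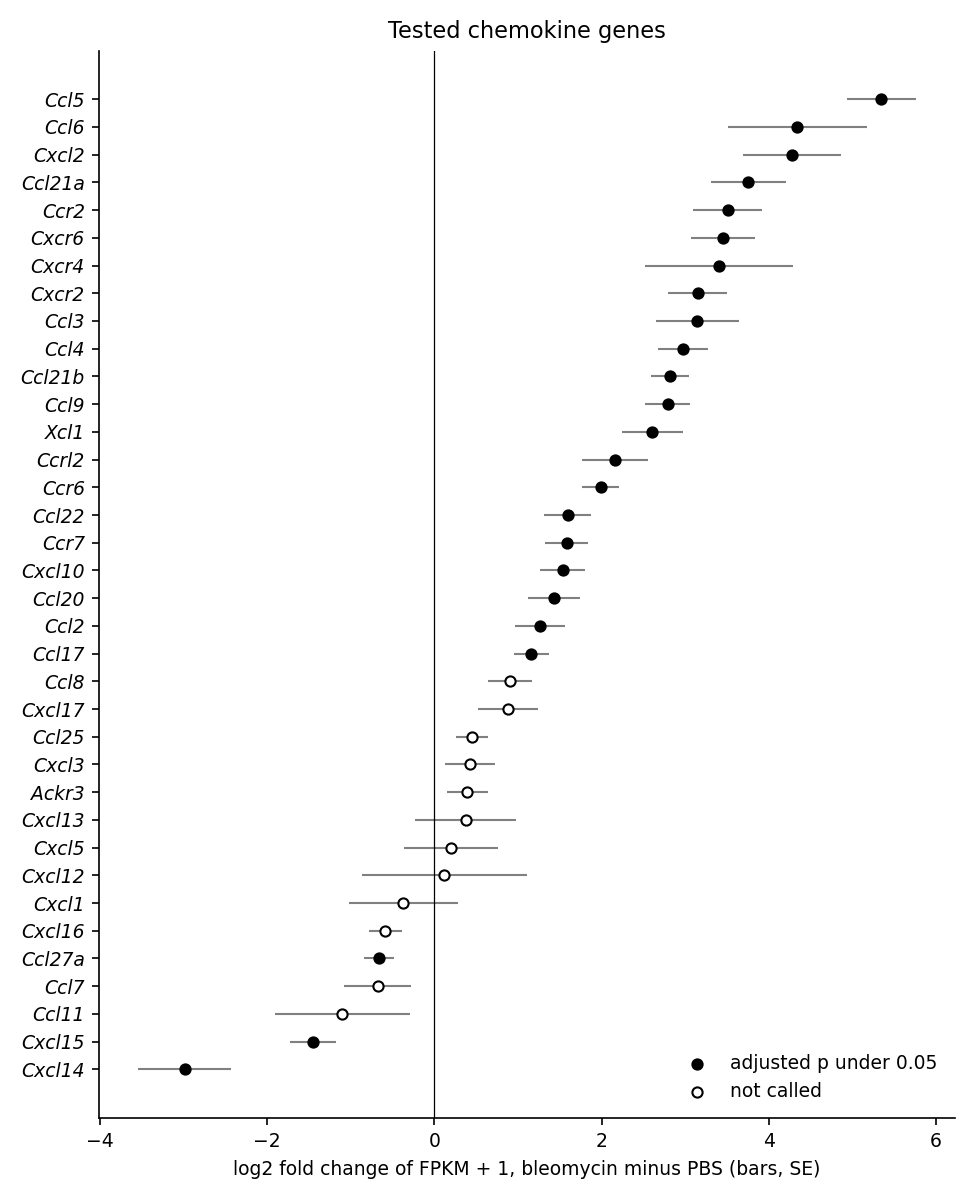
Difference between bleomycin and PBS on the log2(FPKM + 1) scale for each of the 36 tested members, with bars for the standard error and filled points for an adjusted p under 0.05. Ccl5 has the highest value at 5.34 and Cxcl14 the lowest at -2.98.

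The signalling machinery behind the receptors was taken from a list of 33 genes, from G protein subunits to the Rac regulators, all of which were tested. Of these 22 were higher, none lower, and 11 did not pass, against the 15.2% and 7.34% of all genes. Of the 22, 7 were below 1 FPKM in every PBS library and were tested only through bleomycin. The 5 with the smallest adjusted p are known mainly from leukocytes. Dock2, the exchange factor that activates Rac downstream of chemokine receptors, measured 0.643, 1.13 and 0.848 FPKM with PBS and 54.1, 45.002 and 44.4 FPKM with bleomycin (4.71 ± 0.18, adjusted p = 0.000136). Pik3cd, a catalytic subunit of phosphoinositide 3-kinase, rose by 4.08 ± 0.21 (adjusted p = 0.000136), and Pik3r5, a regulatory subunit of another such kinase, by 3.77 ± 0.16 (adjusted p = 0.000136). Vav1, an exchange factor that activates Rac, rose by 4.02 ± 0.20 (adjusted p = 0.000136), and Was, which drives actin branching, by 3.798 ± 0.18 (adjusted p = 0.000136). Pik3r5 and Was are among the 7. Dock2 and Vav1 reached 1 FPKM in some but not all PBS libraries and also needed bleomycin libraries to pass the filter. The part of the leukocyte lists in these values was not tested.

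Within groups the members varied by library. Of the 36 tested members, 21 were highest in bleomycin replicate 1 among the bleomycin libraries, 11 in replicate 3 and 4 in replicate 2. Over all tested genes these shares were 37.1%, 32.5% and 30.4%. The T and NK cell markers had their highest sum in bleomycin replicate 1, 333 FPKM. The macrophage and monocyte markers had theirs in replicate 3, 322 FPKM, of which Cd68 alone made 202 FPKM.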

How the data were processed

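RNA of AT2 preparations from 6 C57BL/6 mice, 3 per group by the series design, was sequenced after TRIzol extraction and a stranded KAPA library kit, per the labels' protocols. Groups and replicate numbers came from the sample titles. HISAT2, StringTie, FastQC 0.10.1 and the build mm10 are named per the submitters' processing notes, while annotation and settings were not stated there. The authors deposited FPKM per transcript, per the file headers, for the same 24647 transcripts in each library, and the listed FPKM sum to 253146 to 300697 per library. Of low values, 12.3% to 25.9% per library lay within 5% of a whole multiple of a common step, so reads could not be recovered, and the depth and counting error are unknown.

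FPKM were summed by gene ID with pandas 2.3.3. Genes with at least 1 FPKM in at least 3 libraries, 12326 in all, were tested on log2(FPKM + 1) with limma 3.58.1 in R 4.3.3 (eBayes with trend on a group term alone, Benjamini-Hochberg adjustment over all tested genes, threshold 0.05), and the test was tested on simulated data. Every p given is limma's. An exact permutation test of 3 against 3 libraries cannot go below 0.1. Each library is 1 mouse, and n = 3 per group.

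Every member is counted, and values of 1 member below the filter are not reported here. Members with a mean of at least 5 FPKM in a group or an adjusted p under 0.05 are given per library, and up to 5 genes of the signalling and chemoattractant lists by smallest adjusted p. Marker genes are given where set beside a result. Members and lists were chosen with earlier results of these data known. Alternative settings were pseudocounts of 0.1 and 5, no filter or one at 5 FPKM, median scaling, quantile normalization, the highest transcript alone, eBayes without trend, library weights, a replicate block, and leaving out single libraries. Promoter windows came from RefSeq (GRCm38.p6), in which 40 of 51 members have an entry, 32 of them within 30 bases of the listed gene start. Ccl5 is named only. The listed genes Fpr1, Ptgdr2 and Gp9 were not analysed here, and Grk2 was matched by its synonym Adrbk1.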

Additional observations from a re-analysis of the deposited data

How the results depend on the processing

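The 16 alternative settings changed no direction among the 24 called members, and 20 of them passed in every setting that tested them. The other 4 were Cxcr4, Ccl27a, Ccl2 and Ccl20, each lost without at least 1 single library. Ligands that rose numbered 14, and 12 to 14 with a library left out, and receptors 7, and 6 to 7. With a library left out, genes over the whole table numbered 1317 to 1757 higher, against 1871, and 457 to 873 lower, against 905. Median scaling gave 1412 lower and quantile normalization 1441, and the causes were not tested. The replicate block gave 1359 higher and 563 lower, 12 ligands higher and 2 lower, 6 receptors higher and 19 signalling genes higher, against 22. It lost Cxcr4 (adjusted p = 0.0827), Ccl27a (0.0749), Ccl2 (0.0821) and Ccl20 (0.0705). The samples share only a number: deviations of same-numbered libraries correlated at -0.0043, 0.0172 and 0.0391, and not every library correlated best with its own number. The epithelial to leukocyte difference, -6.70, ranged from -7.00 to -6.28 with a library left out.

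Differences that changed sign were all of members that did not pass, and the cause was not tested. With a library left out, Cxcl1 ranged from -0.83 to 0.30, Cxcl5 from -0.39 to 0.55, Cxcl12 from -0.82 to 1.30 and Cxcl13 from -0.21 to 1.06. Cxcl1 was 0.30 without PBS replicate 2. Cxcl3 was -0.0135 and Ccl25 -0.0175 with quantile normalization. Cxcl5 was -0.12 with quantile normalization, -0.39 without PBS replicate 1 and -0.06 without bleomycin replicate 2. Cxcl12 was -0.0497 with a pseudocount of 5, -0.05325 with median scaling, -1.58 with the highest transcript alone, -0.82 without PBS replicate 2, -0.11 without PBS replicate 3 and -0.03 without bleomycin replicate 3. Cxcl13 was -0.21 without PBS replicate 2. Unknown depth limits what can be said of members below 1 FPKM, and 25 members were tested with a filter at 5 FPKM.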

Other observations

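Other chemoattractants and their receptors were taken from a list of 14 genes. Of these 12 passed the filter, 5 were higher with bleomycin, none was lower and 7 did not pass, against 15.2% and 7.34% of all tested genes. S1pr4, C5ar1 and Fpr2, 3 of the 5, were below 1 FPKM in every PBS library and were tested only through bleomycin. S1pr4, a sphingosine 1-phosphate receptor of lymphocytes, measured 0.687, 0.556 and 0.571 FPKM with PBS and 20.1, 18.03 and 15.0 FPKM with bleomycin (3.53 ± 0.17, limma adjusted p = 0.000136). C5ar1, the receptor for complement C5a on neutrophils and macrophages, measured 0.274, 0.262 and 0.230 FPKM with PBS and 12.6, 5.73 and 4.75 FPKM with bleomycin (2.69 ± 0.33, adjusted p = 0.00227). Its bleomycin replicate 1 was the highest, as in Cxcr2. Il16, a CD4 ligand that attracts T cells, rose by 1.74 ± 0.21 (adjusted p = 0.0022), and S1pr1, the receptor that lets lymphocytes leave lymphoid tissue and is also abundant in endothelium, by 0.99 ± 0.25 (adjusted p = 0.0332). Fpr2, a formyl peptide receptor, was listed at 0, 0 and 0.177 FPKM with PBS and 4.72, 1.03 and 1.15 FPKM with bleomycin (1.47 ± 0.41, adjusted p = 0.0454). Leukocyte markers moved with these genes as given for the chemokine receptors, and their part was not tested.

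The platelet chemokines Pf4 and Ppbp, which the choice by symbol leaves out, are on this list, and they are named after their values were seen. Pf4 measured 4.12, 2.85 and 1.78 FPKM with PBS and 3.79, 3.33 and 7.01 FPKM with bleomycin, and Ppbp 0.829, 1.74 and 0.448 FPKM with PBS and 2.32, 3.41 and 0.632 FPKM with bleomycin. The groups overlapped in both, and neither passed.

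Cmklr1, the chemerin receptor, was singled out after its values were seen. It measured 3.93, 84.5 and 6.20 FPKM with PBS and 1.67, 2.53 and 67.8 FPKM with bleomycin, so that 1 library of each group stood far above the other 4. It did not pass the test.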
